A study of Homo sapiens with 3 samples.

Results

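NCAM2 encodes neural cell adhesion molecule 2, a membrane protein of the immunoglobulin superfamily that holds neighbouring cells together and is best known from olfactory neurons. The gene spans chr21:22370633-22912517 on the plus strand (hg19), a length of 541.9 kb, and in RefSeq (GRCh38.p14) no other annotated gene overlaps it and its nearest protein-coding neighbours are TMPRSS15 and MRPL39. All ChIP-seq regions of 3 lists whose centre lay between positions 22360000 and 22920000 of chromosome 21 were taken, which gave 52 of 59983 regions. Of these, 20 were Pol II regions with TBBz (of 24782), 29 were Pol II regions with DMSO (of 21819) and 3 were CK2α regions (of 13382). NCAM2 was chosen by its number of Pol II regions in these same lists, which is smaller with TBBz than with DMSO, so that difference is a description and was not tested.

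The cells were LNCaP, an androgen-responsive human prostate carcinoma line, of passages 40 to 45. They were kept for 3 days in medium with 5% charcoal-stripped serum and received dihydrotestosterone (DHT) at 100 nM, a ligand of the androgen receptor, so every library came from androgen-treated cells. The first Pol II library came from cells given 25 μM TBBz, a brominated benzimidazole inhibitor of the protein kinase CK2, for 2.5 hours, with DHT for the last 1.5 hours. The second came from cells given the vehicle, labelled as 25 μM DMSO, on the same schedule. The CK2α library came from cells with DHT and no inhibitor. Its treatment label gives DHT for 2.5 hours, where the protocol text gives 90 min. Both Pol II source names mention TBBz, so only the treatment labels tell these libraries apart. The study asked where CK2α sits on the genome and how Pol II binding differs when CK2 is inhibited. With 1 library in each group there was no replicate spread to judge a difference by, and the conditions were not tested against each other.

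RNA polymerase II (Pol II) assembles at a gene's promoter, usually pauses shortly after the start, and then moves through the gene body as it makes RNA. In ChIP-seq a paused polymerase gives a sharp peak at the start, and moving polymerases give a low, broad signal along the body. CK2 is a widely expressed serine/threonine kinase, and CK2α is one of its catalytic subunits. The peak caller behind these lists looked for point-like sites, and it removed candidates less than 4-fold denser in tags than the 10 kb around them. A region in the body of NCAM2 is therefore a local rise within the gene, and the lists do not give the amount of Pol II spread along it.

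The libraries held 22345614 tags for Pol II with TBBz, 15466579 for Pol II with DMSO and 19021404 for CK2α. The deposited score is 1 for every region, but the order of each list kept the tag numbers. Regions stood in blocks, and each block ran through the chromosomes in genome order before the next began, as in a list sorted by tag number with ties left in genome order. There were 349 blocks with TBBz, 234 with DMSO and 132 for CK2α. Each block was taken as 1 tag more than the block after it, and the lowest level was set from the total of tags in regions that the file header states. The height of each region below is this recovered number, also given as RPM, tags per 1000000 library tags. It is an inference from the order and not a deposited value, with possible errors at both ends. Numbers above about 60 tags can be too low where a tag number was held by no region. In the lowest levels the recovered numbers lay 0 to 3 tags under those implied by the candidate numbers in the region names. The numbers of low regions may therefore be up to 3 tags too low. However, the recovered numbers sum to 99.99% of the header's total with TBBz, 99.8% with DMSO and 99.0% for CK2α. They cannot all be too low if that total counts the same tags. Levels raised by 3 tags, used below as a check, pass it. Intervals are exact 95% intervals for counting error only.

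A tall Pol II region stood at the start of NCAM2 in both lists. With TBBz the first region was chr21:22370653-22370853, centred 120 bp into the gene, and it held 306 tags or 13.7 RPM (12.2 to 15.3). With DMSO the first region was chr21:22370667-22370867, centred 134 bp into the gene, with 158 tags or 10.2 RPM (8.68 to 11.9). The TBBz level at the start was thus not below the DMSO level, and the ratio of TBBz to DMSO was 1.34 (1.10 to 1.63), from tag numbers in the range where recovered levels can be too low. These were the leading regions of the gene in both lists by a wide margin, at place 462 with TBBz and place 320 with DMSO, and they ranked 6 among the 371 TBBz regions and 5 among the 336 DMSO regions of chromosome 21. Over all 16112 pairs of overlapping Pol II regions the median ratio was 1.71 (quartiles 1.15 and 2.23). Among the 245 pairs whose DMSO region held within 10% of the tags of the NCAM2 start (143 to 173), a range chosen after the NCAM2 value was seen, the median was 1.28 (quartiles 1.14 and 1.38), and the NCAM2 start lay between those quartiles. The caller counted at most 1 tag per base position, which limits how high a strong region can rise, and the part of this limit in the ratio was not tested.

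**Figure D1:**
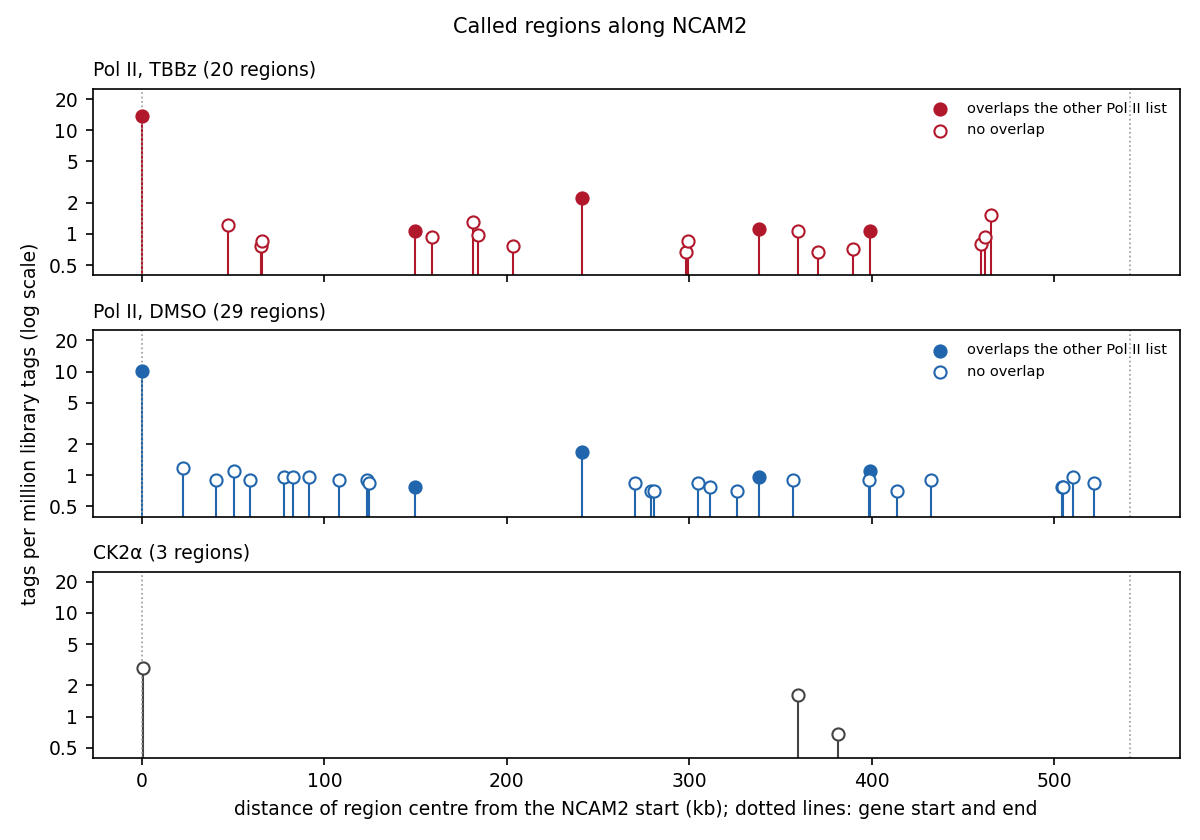
Each stem is 1 called region, placed by the distance of its centre from the start of NCAM2 (kb), with its height in RPM on a log scale; the rows are Pol II with TBBz (20 regions), Pol II with DMSO (29) and CK2α (3). Filled circles overlap a region of the other Pol II list. Both Pol II lists have a tall region at the start (13.7 and 10.2 RPM), and the body holds low regions at mostly different places.

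Behind the start, the body of the gene carried a string of low Pol II regions in both lists. There were 19 body regions with TBBz and 28 with DMSO. The TBBz body regions held 15 to 50 tags (median 21, or 0.940 RPM), and the DMSO body regions held 11 to 26 tags (median 14, or 0.905 RPM). These heights lie near the floor of the lists: the tag threshold was 13 tags (0.582 RPM) with TBBz and 11 tags (0.711 RPM) with DMSO, and the lowest recovered levels were 10 and 8 tags. The median over the whole list was 80 tags with TBBz and 37 tags with DMSO. All body regions stood late in their lists, from 58.2% to 88.9% of the way down with TBBz and from 60.9% to 96.6% with DMSO.

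The number of regions in the stretch was 20 with TBBz and 29 with DMSO, a ratio of 0.690 (0.370 to 1.26). Over the whole lists the ratio was 1.14. The counting interval at NCAM2 includes both 1 and 1.14. The ratio at NCAM2 is the value it was chosen on, and nothing is read from it. The TBBz library was the deeper one, by 1.44 times. It also had 12.6% of its tags in regions, against 6.79% with DMSO, and RPM does not allow for this. With a common floor of 0.711 RPM in both lists, 18 TBBz regions and 29 DMSO regions remained. The 2 TBBz regions that dropped out held 15 recovered tags, and with all levels raised by 3 tags 20 TBBz and 29 DMSO regions remained.

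Few of the body regions were the same sites. Of the 20 TBBz regions, 15 had no DMSO region overlapping them by at least 1 bp, which is 75% (50.9 to 91.3%), against 35.0% over the TBBz list. Of the 29 DMSO regions, 24 had no TBBz region overlapping them, which is 82.8% (64.2 to 94.2%), against 26.2% over the DMSO list. Low regions are shared less often in general: of all TBBz regions with 15 to 34 tags, the range of the unshared TBBz regions here, 54.6% had no DMSO region, and of all DMSO regions with 11 to 18 tags, the range of the unshared DMSO regions here, 52.4% had no TBBz region. Nothing is read from these shares about NCAM2, since they come from the contrast that chose it.

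Most unshared regions lay several kb from the nearest region of the other list. The nearest DMSO centre lay 2.66 to 37.6 kb (median 9.14 kb) from the 15 unshared TBBz regions, and 0 of them had a DMSO centre within 1 kb, against 16.3% of all unshared TBBz regions of the same heights (15 to 34 tags). For 7 of the 15 no DMSO centre lay within 10 kb, against 58.5% at the same heights. The nearest TBBz centre lay 0.661 to 56.8 kb (median 18.4 kb) from the 24 unshared DMSO regions. Of these, 1 had a TBBz centre within 1 kb, against 20.2% of all unshared DMSO regions of the same heights (11 to 18 tags), and 18 had none within 10 kb, against 55.7% at the same heights. The exception was chr21:22769163-22769363 with 14 tags, which stood beside a shared region. These distances come from the contrast that chose NCAM2, and nothing is read from them.

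The first 50% of the gene held 10 TBBz and 14 DMSO regions. Between the start and the first shared body region at 149.8 kb, 10 of the DMSO regions had no TBBz partner. The first was chr21:22392807-22393007, at 22.3 kb with 18 tags or 1.16 RPM (0.690 to 1.84), the tallest unshared DMSO region of the gene. The next was chr21:22410827-22411027, at 40.3 kb with 14 tags. Then came chr21:22420694-22420894 at 50.2 kb with 17 tags and chr21:22429732-22429932 at 59.2 kb with 14 tags. The regions at 50.2 and 59.2 kb lay between TBBz regions, with the nearest TBBz centre 2.88 and 5.76 kb away. Before them, the TBBz region chr21:22417811-22418011 at 47.3 kb held 27 tags. After them, a TBBz pair at chr21:22435491-22435691 and chr21:22436350-22436550, 65.0 and 65.8 kb into the gene, held 17 and 19 tags.

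From 77.7 to 124.5 kb followed 6 DMSO regions with no TBBz region among them, the longest run of the gene from a single list. The run opened with chr21:22448216-22448416, chr21:22453364-22453564 and chr21:22462315-22462515, which held 15 tags each. It went on with chr21:22478353-22478553 and chr21:22494031-22494231 at 14 tags each, and ended with chr21:22494998-22495198 at 13 tags. All 6 thus had nearly the same height, 0.841 to 0.970 RPM. In the TBBz list the same stretch was part of its widest gap, 83.9 kb, between 65.8 and 149.8 kb.

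The order turned round in the next part of the gene. The widest DMSO gap, 91.2 kb, ran from 149.8 to 241.0 kb, and it held 4 TBBz regions and no DMSO region. They were chr21:22529444-22529644 with 21 tags, chr21:22552180-22552380 with 29 tags, chr21:22554993-22555193 with 22 tags and chr21:22573940-22574140 with 17 tags. Their nearest DMSO regions were 9.14 to 37.6 kb away. NCAM2 thus held stretches with regions in the TBBz list alone as well as in the DMSO list alone. The last region in the first 50% of the gene was unshared and came from the DMSO list, chr21:22640590-22640790 with 13 tags.

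The second 50% held 10 TBBz and 15 DMSO regions. Unshared regions of the lists alternated in short runs up to 432.4 kb, of at most 3 regions each. A group of 3 TBBz regions then stood between 460.1 and 465.3 kb, with 18, 21 and 34 tags, and the last of them, chr21:22835846-22836046, was the tallest unshared TBBz region of the gene at 1.52 RPM (1.05 to 2.13). No TBBz region followed in the remaining 76.6 kb of the gene. The DMSO list held 4 regions there, between 504.4 and 522.1 kb, with 12 to 15 tags. In bins of 100 kb from the start, the numbers were 4, 4, 4, 5 and 3 with TBBz and 8, 4, 4, 7 and 2 with DMSO, and the last 41.9 kb held 0 with TBBz and 4 with DMSO. The DMSO excess thus came from the first 100 kb, the bin from 300 to 400 kb and the end of the gene.

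**Figure D2:**
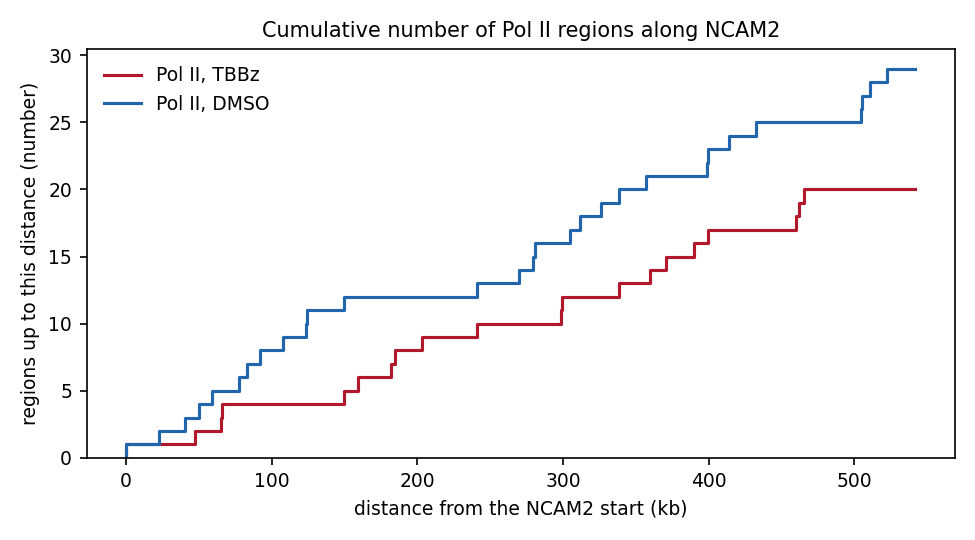
Number of Pol II regions up to each distance from the start of NCAM2 (kb), for TBBz and DMSO. The DMSO line rises faster over the first 124.5 kb, the TBBz line rises alone from 149.8 to 203.4 kb, and the DMSO line alone gains 4 regions after 500 kb.

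Apart from the start, 4 sites of the body were found in both lists, with centres 10 to 59 bp apart. The tallest was at 241 kb, where chr21:22611586-22611786 held 50 tags or 2.24 RPM (1.66 to 2.95) with TBBz and chr21:22611542-22611742 held 26 tags or 1.68 RPM (1.10 to 2.46) with DMSO. It was the tallest body region in either list, and its ratio of TBBz to DMSO was 1.33 (0.813 to 2.23). At 149.8 kb, chr21:22520299-22520499 held 24 tags with TBBz and chr21:22520309-22520509 held 12 tags with DMSO, a ratio of 1.38 (0.666 to 3.04). At 338.3 kb, chr21:22708861-22709061 held 25 tags with TBBz and chr21:22708822-22709022 held 15 tags with DMSO, a ratio of 1.15 (0.585 to 2.35). At 399.3 kb, chr21:22769824-22770024 held 24 tags with TBBz and chr21:22769883-22770083 held 17 tags with DMSO, a ratio of 0.977 (0.503 to 1.94). The counting intervals of all 4 ratios include 1, and with levels raised by 3 tags the ratios ran from 0.934 to 1.26. Over the 4029 shared pairs with 12 to 26 DMSO tags the median ratio was 1.12 (quartiles 0.808 and 1.74), and all 4 lay between those quartiles.

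**Figure D3:**
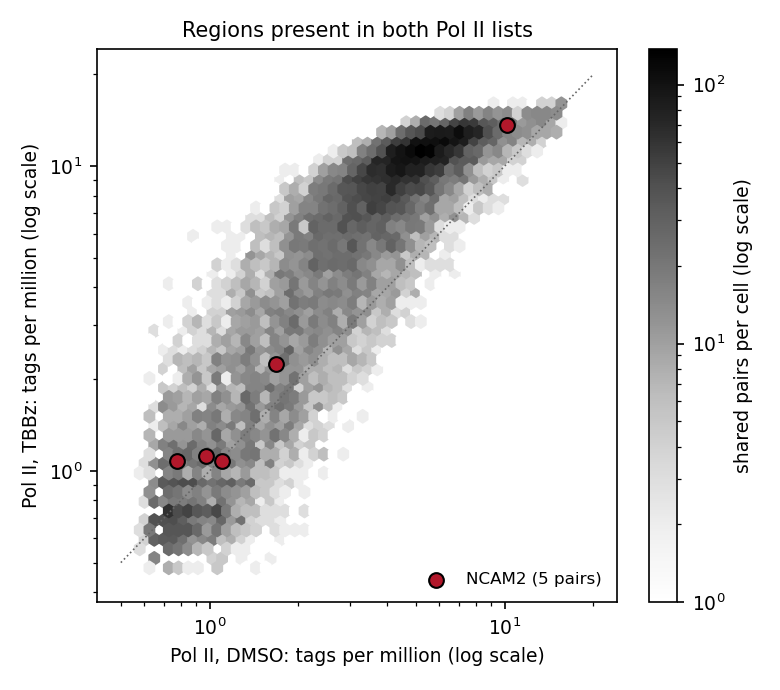
Height of regions present in both Pol II lists, in RPM on log scales, with DMSO across and TBBz up; grey cells count the 16112 overlapping pairs of the genome, the dotted line marks equal levels and the red points are the 5 NCAM2 pairs. The start of NCAM2 (13.7 with TBBz, 10.2 with DMSO) lies above the line, as do 3 of the 4 body pairs. The cloud flattens at the upper end of the TBBz axis.

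After scaling for depth, most unshared sites would reach the tag threshold of the other list. Scaled to the size of the TBBz library, the 24 unshared DMSO regions would hold 15.9 to 26 tags, above the TBBz threshold of 13 in 24 of 24. This holds for 5706 of all 5707 unshared DMSO regions, because the DMSO threshold is the higher one RPM. Scaled to the size of the DMSO library, the 15 unshared TBBz regions would hold 10.4 to 23.5 tags, and 13 of 15 reach the DMSO threshold of 11, against 69.6% of all unshared TBBz regions. With levels raised by 3 tags, 15 of 15 reach it, against 93.0%. Whether a region reaches it depends only on its own tags. The unshared TBBz regions start at 15 tags in NCAM2 and at 10 tags over the whole list. Nothing is therefore read from these shares about NCAM2. The 95% counting interval of a region of 14 DMSO tags runs from 0.495 to 1.52 RPM, which spans both thresholds, so single regions of this height are not securely present or absent in either list.

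**Figure D4:**
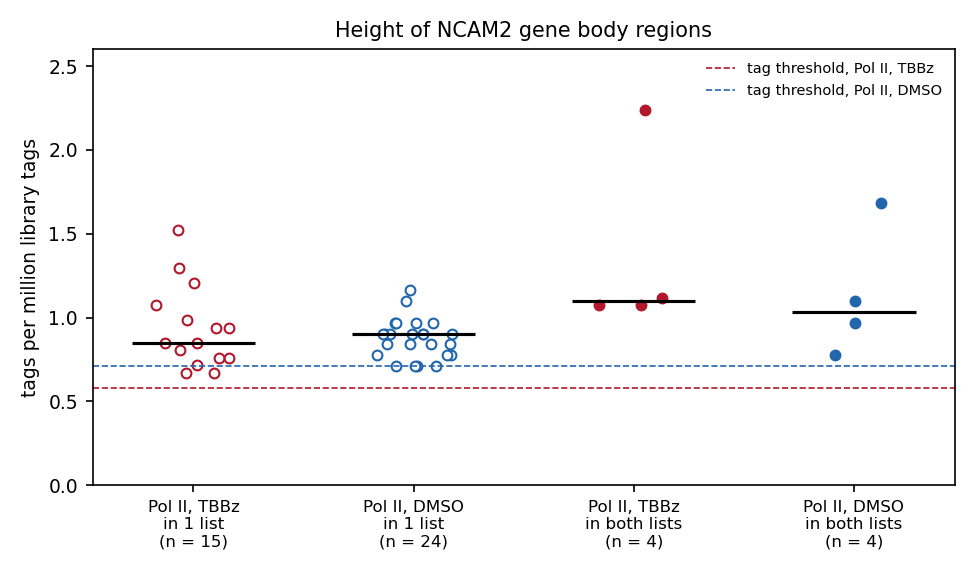
Height in RPM of NCAM2 body regions found in a single Pol II list (open) or in both (filled), with TBBz left of DMSO in each pair; bars are medians and dashed lines the tag threshold of each list. Unshared regions sit at 0.671 to 1.52 with TBBz and 0.711 to 1.16 with DMSO, close to the thresholds.

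The comparison with the surrounding 10 kb was the only filter that removed candidate peaks. On chromosome 21 it removed at least 57.8% of the candidates with TBBz and at least 67.8% with DMSO, by the highest candidate number among the called regions. How many of these lay in NCAM2 was not determined, so a place without a called region may have held a candidate peak.

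CK2α had 3 regions in the gene, and none overlapped a Pol II region. The tallest was chr21:22370895-22371095, 362 bp into the gene, with 56 tags or 2.94 RPM (2.22 to 3.82). Its centre lay 242 bp downstream of the TBBz region and 228 bp downstream of the DMSO region at the start. The second was chr21:22730463-22730663 at 359.9 kb, with 31 tags or 1.63 RPM (1.11 to 2.31). It stood 228 bp downstream of an unshared TBBz region, chr21:22730235-22730435 with 24 tags, while the nearest DMSO centre was 2.89 kb away. The third, chr21:22752131-22752331 at 381.6 kb, held 13 tags and lay 8.10 kb from the nearest TBBz centre and 17.0 kb from the nearest DMSO centre. The CK2α region at the start, from cells without TBBz, thus stood beside the first region of both Pol II lists. No CK2α region lay between those at 362 bp and 359.9 kb. This stretch held the unshared DMSO regions between 22.3 and 124.5 kb and also the unshared TBBz regions between 158.9 and 203.4 kb.

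Overlap with CK2α was found for 0 of the 20 TBBz regions (at most 16.8%), against 19.4% of the TBBz list, and for 0 of the 29 DMSO regions (at most 11.9%), against 22.6% of the DMSO list. In the other direction, 36.0% of all CK2α regions overlapped a TBBz region and 36.8% a DMSO region, where 0 of the 3 CK2α regions of NCAM2 did. With centres within 500 bp counted, 2 of the 20 TBBz regions had a CK2α partner, the one at the start and the unshared one at 359.7 kb, against 35.6% of the TBBz list. Under the same rule 1 of the 29 DMSO regions had one, at the start, against 40.3% of the DMSO list. The list shares cover Pol II regions of all heights, while those of NCAM2 were low apart from the start. Shares at the same heights are not given, so no lack of CK2α is read from these numbers. The CK2α library came from cells without TBBz, so it does not show where CK2α lay with the inhibitor.

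Few regions of any list lay around NCAM2. In the 1 Mb before the stretch there were 1 TBBz, 0 DMSO and 0 CK2α regions, and in the 1 Mb after it 1, 1 and 2. The nearest region outside was a DMSO region 23.8 kb past the end of the gene, chr21:22936226-22936426 with 12 tags, and the last DMSO region inside, chr21:22892651-22892851, held 13 tags. On the TBBz side the nearest outside was chr21:22272535-22272735, 98.0 kb before the gene, with 12 tags.

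Adjacent windows of 560 kb over the genome gave the background of these numbers. Among 3947 windows with at least 1 region of any list and no part of the stretch, the median was 4 TBBz and 4 DMSO regions. A DMSO excess of 9 or more was found in 1 window (0.0253%), and 29 or more DMSO regions in 19 windows (0.481%). NCAM2 was chosen on this contrast, and nothing is read from these shares. The NCAM2 stretch was placed on the gene while the other windows were placed blindly, so its counts have an advantage over theirs. Of the 29 DMSO regions of NCAM2, 27 held at most 18 tags, the highest level of its unshared DMSO regions, which describes the low heights already given. Windows with a similar number of DMSO regions, 25 to 33, numbered 53. These held a median of 12 CK2α regions (quartiles 10 and 15), and 0.00% of them had 3 or fewer, the number in NCAM2. Their ratio of TBBz to DMSO regions had a median of 1.08 (quartiles 1 and 1.24). In 0 of the 53 was it as low as in NCAM2, which was chosen on this contrast. They also held fewer low DMSO regions, with a median of 5 and at most 9 of up to 18 tags.

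Windows nearer to NCAM2 in the heights of their DMSO regions numbered 22. Each held at least 8 DMSO regions, of which at least 75% held at most 18 tags. The choice was made after the values were seen, and whether these windows lie along genes was not looked up. They held 219 TBBz and 232 DMSO regions together. The ratio of TBBz to DMSO regions had a median of 0.955 and ranged from 0.375 to 1.56, with fewer TBBz regions in 11 windows, more in 8 and a ratio at or below the 0.690 of NCAM2 in 3. Of their DMSO regions, 130 (56.0%) had no TBBz region overlapping them. The share was 26.2% over the DMSO list and 52.4% for all DMSO regions with 11 to 18 tags. They held 0 to 10 CK2α regions, with a median of 4, and 9 of the 22 had 3 or fewer. NCAM2 lay inside the range of these windows in both the Pol II ratio and the CK2α number, but the comparison is weak. The windows were picked on their DMSO regions alone, and each held fewer of them than NCAM2, 8 to 17 against 29. Ratios of such small counts spread widely, so nothing is read from NCAM2 lying inside the range.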

How the data were processed

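ChIP-seq regions from 3 LNCaP libraries were used, 1 each for Pol II with TBBz, Pol II with DMSO and CK2α. The submitters' processing notes name Bowtie, HOMER and hg19, with no versions. The authors ran HOMER's factor style on each library by itself, per the file headers, with centring, no control library, peaks of 200 bp at least 500 bp apart, fragments of 150 bp and an FDR of 0.001. The comparison with the surrounding 10 kb removed 35.3% of candidates with TBBz, 53.7% with DMSO and 76.2% for CK2α. The deposited columns hold positions and a score that is 1 throughout.

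Starts were raised by 1 to count from 1. Tag levels were recovered from the list order: a new block began where the genome order restarted, and the lowest level (10, 8 and 9 tags for TBBz, DMSO and CK2α) was the largest whole number with which the sum did not pass the header's tags in regions. These lowest levels are 3 tags under the header thresholds. Against the levels implied by the candidate numbers in the names, the recovered level was 0 to 3 tags lower for 99.9%, 100.0% and 99.9% of the regions in the 6 lowest levels of each chromosome. The counting of blocks was also tested on simulated lists, which cannot show whether the lowest level is right. Scaling used the header totals of library tags and did not allow for the different shares of tags in regions. Overlap meant at least 1 bp. Intervals are exact (Clopper-Pearson for shares, Poisson for tags, and converted from the binomial for ratios) and cover counting error only. They treat the counted tags, at most 1 per base position, and the regions as independent.

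NCAM2, the windows and the lists were chosen with earlier results of these data known. The regions named in full are those in the first 50% of the gene, those in both lists and those nearest the start. The planned look-up of LNCaP marker genes was not run, since no hg19 annotation was used here; the region sequences are not shown for the same reason. Computations used SciPy 1.17.1, pandas 2.3.3 and NumPy 2.4.6 under Python 3.11.15, and figures were drawn with Matplotlib 3.10.9.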

Additional observations from a re-analysis of the deposited data

How the results depend on the processing

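Under alternative settings, 41 values stayed within their counting interval or within 1.5 times the reported count, and 8 did not. In the first 50% of the gene there were 10 TBBz, 14 DMSO and 1 CK2α regions. In the first 50% of each list only the start region remained of the Pol II regions, 1 with TBBz and 1 with DMSO, which overlap, so the unshared shares were 0% in both lists. The TBBz to DMSO ratio there was 1, from 1 region in each list, against 0.690 in the stretch. It was still counted among the 41. With windows shifted by 50% of their width, 0 of 3943 had a DMSO excess of 9 or more. Leaving out the flanks changed no count, because every region lay within the gene. Other values among the 41 could not move either. Trimming the Pol II lists leaves the CK2α number as it is. The common level is the DMSO threshold, which every DMSO region of NCAM2 already met. The wider and stricter overlap rules left 75% of TBBz regions and 79.3 to 82.8% of DMSO regions unshared. Equal numbers of Pol II regions gave a TBBz to DMSO ratio of 0.621, as did the common level of RPM. With levels also raised by 3 tags, which passes the header's totals of tags in regions, the ratio was 0.690. Both common levels and the shifted windows were chosen after the data were seen. No paired analysis was possible because there was 1 library in every group. Tags were not subsampled, and DMSO body regions of 11 to 15 tags have counting intervals that span both thresholds.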

Other observations

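Windows of 560 kb other than the NCAM2 stretch also held strings of low DMSO Pol II regions with fewer TBBz regions. The window with the largest DMSO excess was chr14:38080001-38640000, with 6 TBBz, 16 DMSO and 2 CK2α regions. None of its 16 DMSO regions overlapped a TBBz region, and 15 of them held at most 18 tags. In chr2:189280001-189840000 there were 5 TBBz, 11 DMSO and 0 CK2α regions, with 9 of the DMSO regions unshared. In chr11:24640001-25200000 there were 9 TBBz, 13 DMSO and 3 CK2α regions, with 11 of the DMSO regions unshared. A string of low regions with more TBBz than DMSO regions stood in chr14:92960001-93520000, with 16 TBBz, 12 DMSO and 6 CK2α regions. Over the DMSO list 26.2% of regions were unshared, and 52.4% of those with 11 to 18 tags. The windows named here were picked after their values were seen, and no difference between the lists was tested.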
